A study of Mus musculus with 4 samples.

Results

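The 50 genes described here encode the machinery that copies DNA during S phase, and were taken as a list by function: origin licensing, helicase activation, polymerases, clamp loading, nucleotide supply, chromatin assembly and the checkpoint at the fork. Each was found on the array and is represented by its brightest probe set, out of 19938 genes with a probe set of their own. Of the 50, 48 had a mean above the background threshold, log2 5.87, below which 95% of the chemosensory (olfactory and vomeronasal) receptor genes lay. The exceptions were Orc1 and Gmnn. The arrays hold CD4+ CD8- thymocytes sorted from C57BL/6n mice aged 8 weeks that were miR-142+/+ (WT) or miR-142-/- (knockout), in a less mature population (CD69+ Qa2-) and a more mature population (CD69- Qa2+). A pool of 5 WT mice (3 female, 2 male) and a pool of 4 miR-142-/- mice (1 female, 3 male) each gave both populations, so there was 1 pool per genotype and 1 array per group. Nothing in the labels names a transgene, a Cre or a treatment. The design asks how expression differs without the microRNA in either population, and between the populations.

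Chromosomal DNA is copied once per cell cycle because loading of the helicase and its activation are separated in time. In G1 the origin recognition complex, CDC6 and CDT1 load the MCM2 to MCM7 ring on origins. In S phase CDC45 and the GINS complex turn the ring into an active helicase, and polymerases alpha, epsilon and delta copy the strands behind it with the help of the PCNA clamp. Many of these genes are transcribed under E2F factors. In the thymus most proliferation takes place in double-negative cells and blasts before positive selection, while CD4 single-positive cells cycle little. The dividing share of the sorted populations was not measured here.

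The deleted microRNA is printed to identify what the miR-142-/- cells lack, with the seed (bases 2 to 8) in capitals (RefSeq, GRCm38.p6, chromosome 11, plus strand).
mmu-miR-142a-5p: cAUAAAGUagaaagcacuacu
mmu-miR-142a-3p: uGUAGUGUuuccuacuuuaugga
The Mir142 probe set read log2 10.11 and 9.41 on the WT Qa2- and Qa2+ arrays, and 5.29 and 4.88, below the background threshold, in the miR-142-/- populations. Cd69 was lower in Qa2+ than in Qa2- cells by 0.77 on the WT arrays and 0.96 on the knockout arrays on the log2 scale, and Cd4 lay between 12.36 and 12.64 on all arrays. Sex-linked transcripts went against the labelled pools of both sexes: Xist read 12.67 and 12.14 in WT but 5.06 and 4.83 on the knockout arrays, and the Y-linked gene Eif2s3y read 4.29 and 4.39 in WT but 10.55 and 10.58 on the knockout arrays. Genotype, sex-linked transcripts and pool therefore cannot be told apart in any genotype comparison here. For the knockout Qa2- sample the description field says Qa2+, while its title and its sorting entry say Qa2-; the latter were followed.

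For the members, 41 of 50 had a start-site window in the RefSeq promoter table (GRCm38.p6; 250 bases before to 50 bases after the start). Those not in it were Gmnn, Mcm4, Gins1, Gins2, Prim2, Pole, Rfc2, Ccne2 and Tipin. The windows were searched on both strands for E2F-type sequences (spelled TTCCCGC or alternatively TTGGCGC, and likewise TTCGCGC or alternatively TTGCCGC) and for CCAAT, the core read by NF-Y. An E2F-type sequence was present for 28 of the 41 members (68.3%) against 10.9% of 27025 genes, and against 18.6% of the 10031 genes that were above background on these arrays. CCAAT was present for 25 of 41 members (61.0%) against 41.1% of the 27025 genes. The spellings can overlap, and such an overlap occurred in 3 of the 41 members and in 0.525% of all genes. Below are the 150 bases before the start of 8 members, those with a match there and the largest mean genotype difference, at most 2 from each role, written 5′ to 3′ with E2F-type matches on either strand in capitals.
Dtl (chr1:191575545-191575694, minus): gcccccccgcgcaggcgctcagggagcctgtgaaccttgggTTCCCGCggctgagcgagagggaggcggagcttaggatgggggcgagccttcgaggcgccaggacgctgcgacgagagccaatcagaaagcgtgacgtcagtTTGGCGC
Cdc6 (chr11:98908001-98908150, plus): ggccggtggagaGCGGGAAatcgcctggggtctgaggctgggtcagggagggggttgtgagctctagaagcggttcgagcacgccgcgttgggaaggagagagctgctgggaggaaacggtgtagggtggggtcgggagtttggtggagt
Uhrf1 (chr17:56303187-56303336, plus): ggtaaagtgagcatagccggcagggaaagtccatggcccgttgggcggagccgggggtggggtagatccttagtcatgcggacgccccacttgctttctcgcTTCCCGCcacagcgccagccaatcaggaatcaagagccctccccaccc
Chaf1a (chr17:56040266-56040415, plus): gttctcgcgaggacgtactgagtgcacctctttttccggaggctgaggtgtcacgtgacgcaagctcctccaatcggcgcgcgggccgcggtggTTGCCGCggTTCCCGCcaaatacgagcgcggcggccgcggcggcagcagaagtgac
Prim1 (chr10:128015065-128015214, plus): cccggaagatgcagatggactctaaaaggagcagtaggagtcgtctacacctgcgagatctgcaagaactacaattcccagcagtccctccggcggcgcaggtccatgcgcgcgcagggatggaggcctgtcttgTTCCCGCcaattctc
Pola1 (chrX:93632156-93632305, minus): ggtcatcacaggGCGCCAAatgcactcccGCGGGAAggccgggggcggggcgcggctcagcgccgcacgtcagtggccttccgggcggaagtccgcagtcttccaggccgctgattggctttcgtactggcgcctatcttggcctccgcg
Orc1 (chr4:108579304-108579453, plus): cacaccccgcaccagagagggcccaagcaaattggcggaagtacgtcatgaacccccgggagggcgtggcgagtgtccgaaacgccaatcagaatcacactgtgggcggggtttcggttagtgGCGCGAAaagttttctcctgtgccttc
Rrm1 (chr7:102441545-102441694, plus): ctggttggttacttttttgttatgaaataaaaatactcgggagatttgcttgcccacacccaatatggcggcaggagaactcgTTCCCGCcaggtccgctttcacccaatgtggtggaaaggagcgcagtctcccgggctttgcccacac
Members with and without an E2F-type sequence in the 300 bases had overlapping genotype differences. The 28 with a match had median log2 differences (miR-142-/- minus WT) of -0.91 in Qa2- and -0.63 in Qa2+ cells, and the 13 without had -0.79 and -0.81. A match is a string of letters and not evidence of a bound site.

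Nearly every replication gene was lower without miR-142. Of the 50 members, 49 lay below WT in Qa2- cells and 49 in Qa2+ cells, where 47.6% and 49.4% of all named genes did, and the same 49 did so in both (30.3% of all genes). The median log2 difference was -0.89 in Qa2- and -0.65 in Qa2+ cells, beside 0.01 and 0.00 over all genes. By the deposited values, 33 members in Qa2- cells (2.54% of all genes) and 30 in Qa2+ cells (3.32% of all genes) were at least 1.5-fold lower, with 28 shared by both (1.82% of all genes). These counts include values below background. With such values set to the threshold, an alternative added once the values were known, they came to 30, 29 and 26, beside 2.35%, 3.02% and 1.68% of all genes. Orc1 and Gmnn dropped out, as did Clspn in Qa2- cells, and the members below WT in Qa2+ cells became 47. No member was at least 1.5-fold higher (2.10% and 3.17% of all genes). Among genes above background, 3.74% and 4.88% were at least 1.5-fold lower and 1.29% and 1.85% at least 2-fold lower. At 2-fold the members numbered 20, 15 and 12, beside 0.888%, 1.23% and 0.637% of all genes. These values compare 1 array with 1 array, which leaves the genotype without replicates and without a p-value, and a smaller share of cycling cells cannot be told apart from less RNA per cell.

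The arrays of the genotypes did not overlap for most members. For 47 of 50 both WT arrays lay above both miR-142-/- arrays, an order shown by 17.7% of all genes, and for Orc1 and Gmnn among them only the WT Qa2- array was above background. The exceptions were Pole2 and Rfc3, for which the genotypes overlapped, and Rfc1, for which both miR-142-/- arrays were the higher. In Qa2- cells 43 members, and in Qa2+ cells 36, lay in the lowest 5% of all genes by genotype difference. Closest to the 1.5-fold limit in Qa2- cells were Rfc3 at -0.60 just inside and Mcm7 at -0.58 just outside, and in Qa2+ cells Pold1 at -0.60 inside and Pole2 at -0.55 outside.

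**Figure D1:**
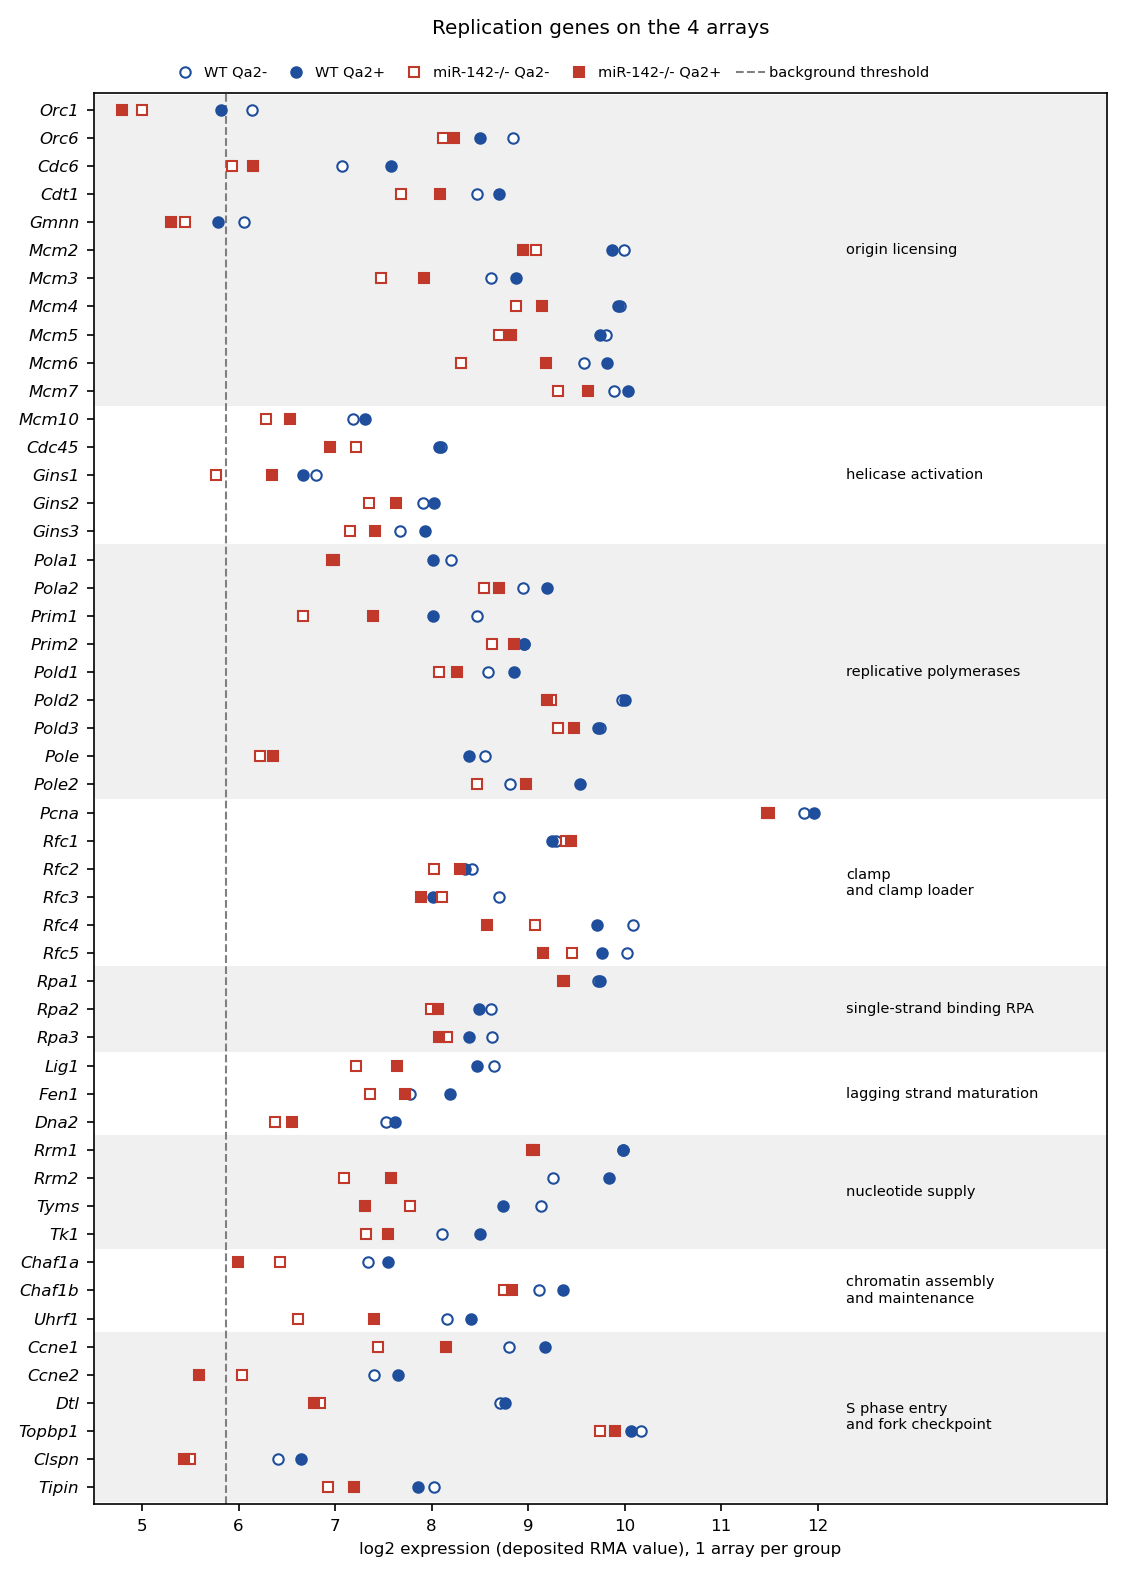
Deposited log2 expression (x axis) of each of the 50 members (rows, grouped by role) on the 4 arrays, with WT as blue circles, miR-142-/- as red squares, Qa2- open and Qa2+ filled, and the background threshold of 5.87 dashed. Red lies left of blue in most rows, by the widest gap for Pole (8.55 and 8.38 in WT, 6.22 and 6.35 on the knockout arrays), while Rfc1 shows the opposite order; levels of different rows are not comparable.

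**Figure D2:**
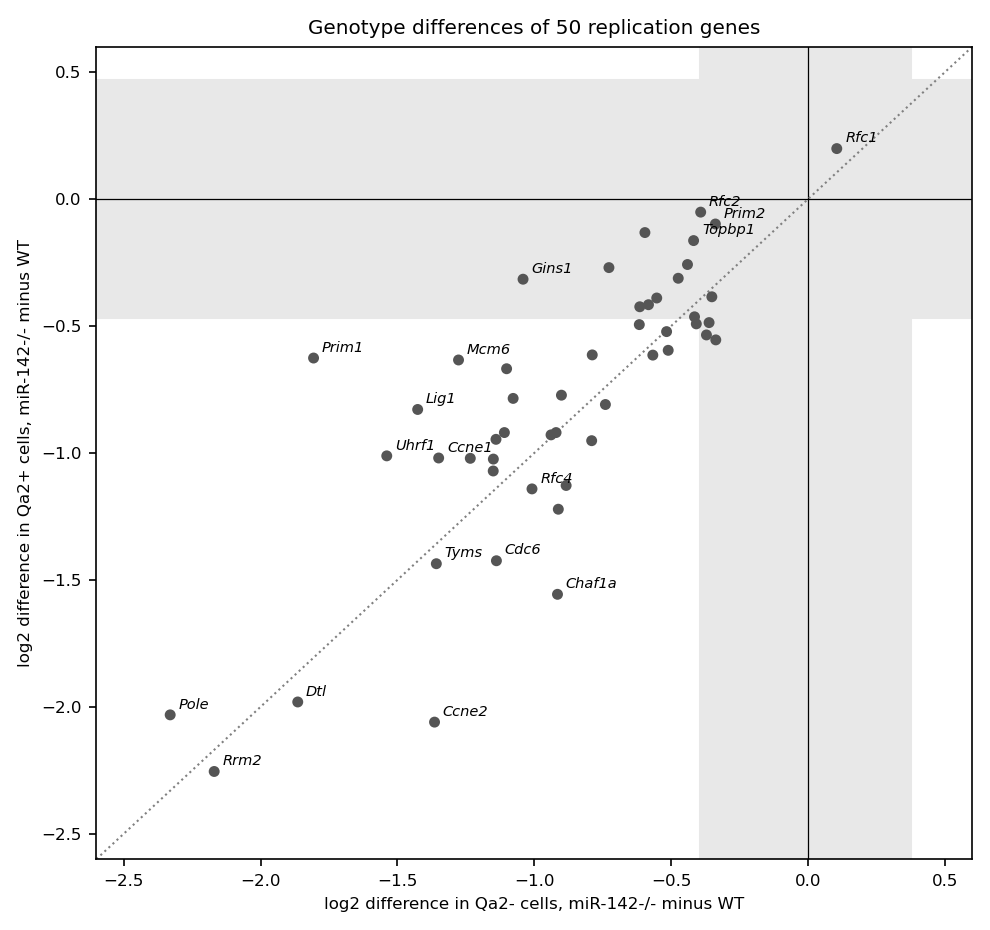
Log2 difference between miR-142-/- and WT in Qa2- cells (x axis) and Qa2+ cells (y axis) for the 50 members, with the central 90% of all genes shaded on each axis and equality dotted. All points but Rfc1 lie below 0 on both axes, from Rfc2 (-0.39 and -0.05) and Prim2 (-0.34 and -0.10), which lie inside the shaded range of ordinary genes on both axes, to Pole at -2.33 and -2.03 and Rrm2 at -2.17 and -2.25.

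Licensing genes were mostly lower, from -1.28 to -0.58 in Qa2- and from -1.42 (Cdc6) to -0.27 (Orc6) in Qa2+ cells. By the deposited values all 11 were below WT in both populations, 10 of them at least 1.5-fold in Qa2- and 8 in Qa2+ cells, the medians being -1.08 and -0.78. With values below background set to the threshold the counts past 1.5-fold were 8 and 7, and Orc1 and Gmnn had no measurable difference in Qa2+ cells. The 6 subunits of the MCM ring ranged from -1.28 to -0.58 in Qa2- cells and from -0.95 to -0.42 in Qa2+ cells, a narrower range than that of the polymerases. Mcm2 read log2 9.998 and 9.87 on the WT Qa2- and Qa2+ arrays, and 9.08 and 8.95 on the knockout arrays, 1.89-fold lower in each population. Mcm5, which closes the ring against Mcm2, read 9.81 and 9.74 on the WT arrays and 8.70 and 8.83 on the knockout arrays, 2.16-fold and 1.89-fold lower. Both WT arrays were above both miR-142-/- arrays for these subunits, and WT differed little between the stages.

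Mcm3 read 8.62 and 8.87 on the WT Qa2- and Qa2+ arrays, against 7.48 and 7.92 on the knockout arrays, which is 2.20-fold and 1.93-fold lower. Mcm4 read 9.95 and 9.93 against 8.87 and 9.15, 2.11-fold and 1.72-fold lower. Mcm6 had the largest gap of the ring in Qa2- cells, with 9.58 and 9.82 on the WT arrays and 8.30 and 9.19 on the knockout arrays, so it was 2.42-fold (Qa2-) and 1.55-fold (Qa2+) lower. Mcm7 differed least, at 9.89 and 10.03 on the WT arrays and 9.31 and 9.62 on the knockout arrays. For each of the 6 subunits the genotype difference was at least as large in Qa2- as in Qa2+ cells, by 0.64 on the log2 scale for Mcm6 and hardly at all for Mcm2.

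The loaders and their inhibitor showed the same direction. Cdc6, the ATPase that loads the ring, read 7.07 and 7.57 on the WT Qa2- and Qa2+ arrays, and 5.94 and 6.15 on the knockout arrays, 2.20-fold and 2.68-fold lower. Cdt1, its partner, read 8.47 and 8.70 on the WT arrays and 7.68 and 8.08 on the knockout arrays, 1.73-fold and 1.53-fold lower. Gmnn encodes geminin, which binds CDT1 and stops a second round of loading. It read 6.06 and 5.79 on the WT arrays and 5.44 and 5.29 on the knockout arrays, so only the WT Qa2- array was above background and the difference there was at least 1.14-fold. Orc1, the largest subunit of the origin recognition complex, read 6.14 and 5.81 on the WT arrays and 4.99 and 4.79 on the knockout arrays, at least 1.21-fold lower in Qa2- cells and below background on both Qa2+ arrays. Orc6, the smallest subunit, read 8.84 and 8.50 on the WT arrays and 8.12 and 8.23 on the knockout arrays, 1.66-fold (Qa2-) and 1.21-fold (Qa2+) lower.

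Genes that turn the loaded ring into a helicase were lower in all 5 cases, the medians being -0.88 in Qa2- and -0.52 in Qa2+ cells. Cdc45, the helicase cofactor, read 8.10 and 8.08 on the WT Qa2- and Qa2+ arrays, and 7.21 and 6.95 on the knockout arrays, 1.84-fold and 2.19-fold lower. Mcm10, which helps the helicase open DNA, read 7.19 and 7.31 on the WT arrays and 6.28 and 6.53 on the knockout arrays, 1.87-fold and 1.71-fold lower. The GINS subunits differed less evenly. Gins1 read 6.80 and 6.67 in WT against 5.76, below background, and 6.35 on the knockout arrays, at least 1.91-fold (Qa2-) and 1.24-fold (Qa2+) lower. Gins2 (-0.55 and -0.39) and Gins3 (-0.52 and -0.52) stayed short of 1.5-fold in both populations.

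The polymerase genes split between members with large and small differences. All 9 were below WT in both populations, but 4 in Qa2- and 5 in Qa2+ cells reached 1.5-fold, the medians being -0.51 and -0.60. Pole, the catalytic subunit of the leading-strand polymerase epsilon, read 8.55 and 8.38 on the WT Qa2- and Qa2+ arrays, and 6.22 and 6.35 on the knockout arrays, 5.03-fold and 4.09-fold lower. It had the largest difference of all 50 members in Qa2- cells, and 0.0752% of all genes were as low there. Pole2, its accessory subunit, read 8.81 and 9.54 on the WT arrays and 8.47 and 8.98 on the knockout arrays, 1.26-fold and 1.47-fold lower. The genotype difference of Pole minus that of Pole2 was -1.99 in Qa2- and -1.48 in Qa2+ cells on the log2 scale, and the WT and miR-142-/- arrays overlapped for Pole2.

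Primase, which makes the RNA primers, showed a similar contrast in Qa2- cells. Prim1, the catalytic subunit, read 8.47 and 8.02 on the WT Qa2- and Qa2+ arrays, and 6.66 and 7.39 on the knockout arrays, 3.50-fold lower in Qa2- but 1.54-fold lower in Qa2+ cells. Prim2, the large subunit, read 8.96 and 8.95 on the WT arrays and 8.62 and 8.86 on the knockout arrays, 1.26-fold and 1.07-fold lower. Pola1, the catalytic subunit of polymerase alpha, read 8.20 and 8.01 on the WT arrays and 6.96 and 6.99 on the knockout arrays, 2.35-fold and 2.03-fold lower, while its B subunit gene Pola2 differed by -0.41 and -0.49. Pola1 lies on the X chromosome.

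Polymerase delta, which copies the lagging strand, showed smaller differences. Pold2, a structural subunit, read 9.97 and 10.004 on the WT Qa2- and Qa2+ arrays, and 9.23 and 9.20 on the knockout arrays, 1.67-fold and 1.75-fold lower. The catalytic subunit gene Pold1 differed by -0.51 and -0.60, and Pold3 by -0.44 and -0.26. In contrast to polymerases epsilon and alpha, the largest difference of this enzyme was not in its catalytic subunit. Whether the subunits differ beyond array error was not testable with 1 array per group.

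The sliding clamp and its loader had the smallest differences, together with the RPA genes, and the only member that was higher. Pcna, the clamp that tethers polymerases to DNA, read 11.85 and 11.96 on the WT Qa2- and Qa2+ arrays, and 11.49 and 11.47 on the knockout arrays, 1.28-fold and 1.40-fold lower. A second probe set annotated to Pcna gave almost the same values, and copies of the gene could share signal between them. Rfc1, the large loader subunit, read 9.29 and 9.25 on the WT arrays and 9.40 and 9.45 on the knockout arrays, differences of 0.11 and 0.20 that stayed above 0 after median equalisation (0.08 and 0.14) and quantile normalization (0.11 and 0.17). Rfc4 was the other extreme of the same complex, with 10.08 and 9.71 on the WT arrays and 9.07 and 8.57 on the knockout arrays, 2.01-fold and 2.21-fold lower. Rfc5 read 10.02 and 9.77 against 9.45 and 9.15, and Rfc3 read 8.70 and 8.02 against 8.11 and 7.89. Rfc2 differed by -0.39 in Qa2- and -0.05 in Qa2+ cells.

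RPA coats the exposed DNA strand. Its genes Rpa1 (-0.35 and -0.38), Rpa2 (-0.61 and -0.42) and Rpa3 (-0.47 and -0.31) were lower in both populations, and of these Rpa2 in Qa2- cells passed 1.5-fold. A second Rpa3 probe set gave -0.48 and -0.34. For all 3 genes the WT arrays were above the miR-142-/- arrays.

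Genes that join and trim lagging-strand fragments were lower by unequal amounts. Lig1, the ligase that seals Okazaki fragments, read 8.65 and 8.47 on the WT Qa2- and Qa2+ arrays, and 7.22 and 7.64 on the knockout arrays, 2.69-fold and 1.78-fold lower. Dna2, a nuclease and helicase that trims long flaps, read 7.53 and 7.62 on the WT arrays and 6.38 and 6.55 on the knockout arrays, 2.22-fold and 2.10-fold lower. Fen1, the flap endonuclease, read 7.78 and 8.19 on the WT arrays and 7.36 and 7.73 on the knockout arrays, 1.33-fold and 1.38-fold lower.

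Nucleotide supply was the role in which every member passed 1.5-fold in both populations, 4 of 4, the medians being -1.15 and -1.19. Rrm2, the small subunit of ribonucleotide reductase whose level limits the enzyme in S phase, read 9.26 and 9.84 on the WT Qa2- and Qa2+ arrays, and 7.09 and 7.58 on the knockout arrays, 4.5-fold and 4.77-fold lower. Rrm1, the large subunit, read 9.98 and 9.99 on the WT arrays and 9.04 and 9.06 on the knockout arrays, 1.92-fold and 1.90-fold lower, and the genotype difference of Rrm2 minus that of Rrm1 was -1.23 and -1.33. Tyms, thymidylate synthase, read 9.13 and 8.74 on the WT arrays and 7.78 and 7.31 on the knockout arrays, 2.56-fold and 2.71-fold lower. Tk1, the thymidine salvage kinase, read 8.11 and 8.50 on the WT arrays and 7.32 and 7.55 on the knockout arrays, 1.73-fold and 1.93-fold lower, and a second Tk1 probe set differed more, by -1.05 and -1.53.

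Chromatin has to be rebuilt behind the fork. Chaf1a, the large subunit of chromatin assembly factor 1, read 7.34 and 7.55 on the WT Qa2- and Qa2+ arrays, and 6.42 and 6.00 on the knockout arrays, 1.89-fold and 2.94-fold lower. Its partner Chaf1b read 9.12 and 9.36 against 8.75 and 8.83, 1.29-fold and 1.45-fold lower. Uhrf1, which brings the maintenance methyltransferase to hemimethylated DNA, read 8.16 and 8.41 on the WT arrays and 6.62 and 7.40 on the knockout arrays, 2.91-fold and 2.02-fold lower.

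Of the 6 genes of S phase entry and the fork checkpoint, 5 were at least 1.5-fold lower in both populations by the deposited values and 4 with values below background set to the threshold, which leaves out Clspn. The medians of the deposited values were -1.23 and -1.12. Dtl, the CDT1-degrading ligase adaptor, read 8.71 and 8.76 on the WT Qa2- and Qa2+ arrays, and 6.84 and 6.78 on the knockout arrays, 3.64-fold and 3.95-fold lower. Ccne1, a cyclin that drives CDK2 into S phase, read 8.80 and 9.17 on the WT arrays and 7.45 and 8.15 on the knockout arrays, 2.55-fold and 2.03-fold lower. Ccne2, the second E-type cyclin, read 7.40 and 7.65 on the WT arrays and 6.04 and 5.59, the latter below background, on the knockout arrays, 2.57-fold lower in Qa2- and at least 3.44-fold lower in Qa2+ cells. Clspn encodes claspin, the checkpoint mediator at the fork. It read 6.41 and 6.65 on the WT arrays and 5.49 and 5.43, below background, on the knockout arrays, a gap of at least 1.45-fold (Qa2-) and 1.72-fold (Qa2+).

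Tipin, part of the fork protection complex, read 8.03 and 7.86 on the WT Qa2- and Qa2+ arrays, and 6.93 and 7.20 on the knockout arrays, 2.14-fold and 1.59-fold lower. Topbp1, which activates the ATR kinase, was the exception of this role at 10.17 and 10.07 on the WT arrays and 9.75 and 9.91 on the knockout arrays, 1.34-fold and 1.12-fold lower. WT was above miR-142-/- on both pairs of arrays for each of the 6 genes.

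**Figure D3:**
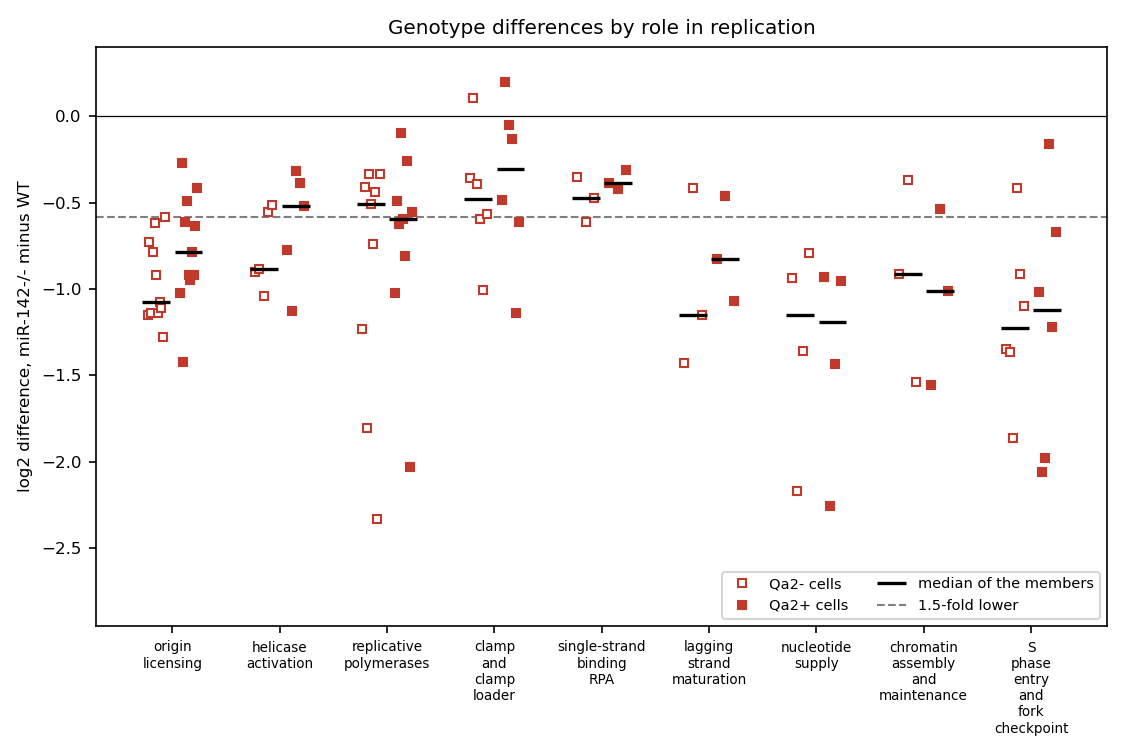
Log2 difference between miR-142-/- and WT (y axis) for each member, by role (x axis), with Qa2- cells as open and Qa2+ cells as filled squares, bars at the median of a role and the 1.5-fold limit dashed. All 4 nucleotide supply genes lie below the dashed line in both populations, while polymerases and the clamp loader spread from near 0 to beyond -1.

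Genes of the same pathway outside the 50 were mostly lower too. Of 42 other replication genes measured, a list drawn up with earlier results of these arrays known, 40 were below WT in Qa2- and 33 in Qa2+ cells, the medians being -0.36 and -0.35. At least 1.5-fold lower were 11 in each population (11 and 10 with values below background set to the threshold), 9 of them in both, and none was at least 1.5-fold higher. The cyclin gene Ccna2 differed by -2.30 and -2.76, the cohesin acetyltransferase gene Esco2 by -1.66 and -2.14, the histone chaperone gene Asf1b by -1.66 and -2.55 and the origin-firing factor gene Ticrr by -1.60 and -1.99. The chromatin remodeller gene Hells (-1.32 and -0.87), the exonuclease gene Exo1 (-0.86 and -0.88), the fork factor gene Wdhd1 (-1.07 and -0.86) and Timeless (-0.78 and -0.72), the partner of Tipin, followed. The remaining measured subunits of the origin recognition complex, singled out after their values were seen, stayed short of 1.5-fold, with Orc2 at -0.29 and -0.11, Orc3 at -0.23 and -0.22, Orc4 at -0.06 and 0.46 and Orc5 at -0.12 and 0.12. The mitosis list (19 genes measured) had 18 genes past 1.5-fold in Qa2- (17 with values below background set to the threshold) and all 19 in Qa2+ cells, at medians of -1.48 and -1.99.

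Some markers of other cells also differed between the genotypes. All 11 genes measured from the innate-like and effector list lay below WT in both populations by the deposited values (11 and 10 with values below background set to the threshold), with a mean log2 level over the list of 8.17 and 7.31 on the WT Qa2- and Qa2+ arrays, and 6.26 and 6.43 on the knockout arrays. Of them 11 and 10 were above background on the WT arrays and 7 and 7 on the miR-142-/- arrays, and Gzmb and Klrb1c were below background in miR-142-/-. Regulatory T cell genes had mean levels of 9.52 and 10.08 on the WT arrays and 9.30 and 9.42 on the knockout arrays and went both ways. In Qa2- cells 6 of the 9 lay above WT and the median difference was 0.11, while in Qa2+ cells 7 lay below and the median was -0.82. Ctla4 (-2.61 and -2.65) and Foxp3 (-1.19 and -1.66) were lower in both populations, and Gpr83 (1.03 and 1.27) and Il2ra (0.33 and 0.26) were higher in both; these 4 were singled out after their values were seen. CD8 single-positive genes had mean levels of 7.76 and 7.80 on the WT arrays and 7.27 and 7.34 on the knockout arrays. The mean over 10 double-positive thymocyte genes was 7.24 and 7.87 on the WT arrays and 7.40 and 7.90 on the knockout arrays. Between the stages 5 of the 8 tested genes of this list were called higher in Qa2+ cells and 1, Cd24a, lower (limma). Rag1, singled out after its values were seen, read 5.92 and 8.63 on the WT Qa2- and Qa2+ arrays, and 6.11 and 8.02 on the knockout arrays. What this means for the make-up of the Qa2+ populations was not tested. B cell, gamma-delta T cell, erythroid, myeloid and stromal lists had median genotype differences between -0.15 and 0.13. Of the 7 B cell genes measured, 2 were above background on each array, and Cd79a, Ms4a1 and Pax5 were on none. Single genes differed more than the medians. The B cell gene Cd79b, above background on all arrays and singled out after its values were seen, differed by -0.48 in Qa2- and -0.45 in Qa2+ cells. In each population 4 of the 7 genes of its list lay below WT and 3 above. In Qa2+ cells the myeloid genes Lyz2 and Cd68 differed by -0.81 and -0.63, where 6 of the 10 genes of that list lay below WT and 4 above. The stromal gene Krt8 differed by 0.54 in Qa2- and 0.93 in Qa2+ cells, where 6 of the 9 genes of its list lay above WT in each population and 3 below. Among those below, Epcam, singled out after its values were seen, differed by -0.60 in Qa2- and -0.26 in Qa2+ cells. Its knockout Qa2- value was below background. The part of these cells in the lower replication genes was not tested.

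Between the stages most replication genes differed little, and those that passed the test went both ways. Averaged over the genotypes, with the pool as a block, 6 of the 50 members rose in Qa2+ cells, 2 fell, 40 were not called and 2 (Orc1 and Gmnn) were below background and not tested (limma, Benjamini-Hochberg adjusted p below 0.05). Over all tested genes 4.89% rose and 8.54% fell. The median log2 difference (Qa2+ minus Qa2-) of the members was 0.02 in WT cells and 0.16 in knockout cells, beside -0.05 and -0.06 over all genes.

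Pole2 rose by 0.62 ± 0.11 (limma log2 difference ± SE, 2 pairs of arrays, adjusted p = 0.0094), from 8.81 to 9.54 in WT and from 8.47 to 8.98 in the knockout. Rrm2 rose by 0.54 ± 0.10 (limma, adjusted p = 0.013), the genotypes giving 0.58 (WT) and 0.49 (knockout). Ccne1 rose by 0.54 ± 0.11 (limma, adjusted p = 0.021), and Fen1 by 0.39 ± 0.10 (limma, adjusted p = 0.038), the genotypes giving 0.41 (WT) and 0.37 (knockout). For Rrm2 and Fen1 the stage differences of the genotypes differed by -0.09 and -0.05 (miR-142-/- minus WT). Uhrf1 rose by 0.52 ± 0.14 (limma, adjusted p = 0.042) and Mcm6 by 0.56 ± 0.15 (limma, adjusted p = 0.045), each more in miR-142-/- (0.78 and 0.88) than in WT (0.25 and 0.24).

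The decreases were Tyms, by 0.43 ± 0.10 (limma, adjusted p = 0.028; -0.39 in WT, -0.47 in the knockout), and Rfc4, by 0.44 ± 0.10 (limma, adjusted p = 0.028), with -0.37 and -0.50. Rfc3 missed the threshold (limma, adjusted p = 0.053), the genotypes giving -0.68 (WT) and -0.22 (knockout), and Rfc5 was also lower in both genotypes (-0.26 and -0.30, limma, adjusted p = 0.10). By contrast Cdc6 (0.50 and 0.21), Mcm3 (0.25 and 0.45), Cdt1 (0.23 and 0.40) and Tk1 (0.39 and 0.23) were above 0 in both genotypes without passing. The stage calls depended on the model and on scaling. After the array medians were equalised 10 members were called higher and 0 lower. Over the 12581 genes tested, 1088 were then called higher and 737 lower, against 615 and 1075 as deposited. Without the pool as a block limma called 0 of the 12581 genes tested, and so no member. No member had an unadjusted p under 0.05 in that model, while 1543 of all genes did. That model ignores the pairing and leaves the genotype difference in the residual, so it could hardly call genes that differ between the genotypes. Receptor genes, which should not be expressed, were called in 6.30% of cases when no background filter was used, against 12.6% of other genes.

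**Figure D4:**
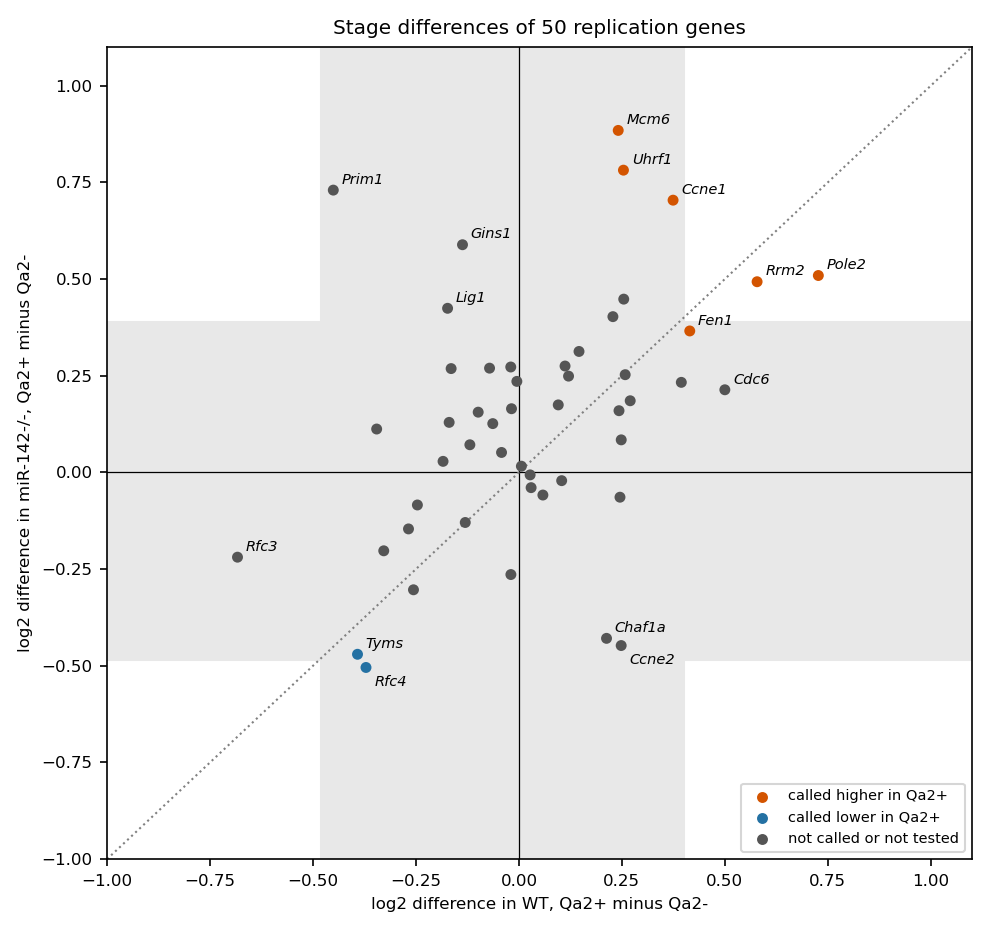
Log2 difference between Qa2+ and Qa2- cells in WT (x axis) and miR-142-/- (y axis) for the 50 members, with limma calls of the averaged difference coloured, the central 90% of all genes shaded on each axis and equality dotted. The 6 genes called higher lie in the upper right and Tyms and Rfc4 in the lower left, while Prim1 at -0.45 and 0.73 lies far from the dotted line.

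The stage differences of the genotypes were of opposite sign for 22 members: 15 were below 0 in WT and above 0 in the knockout, and 7 the other way. Over all genes 29.8% had opposite signs, 14.6% and 15.3% in those directions. In WT 26 members were above 0 (40.5% of all genes), and in miR-142-/- 34 were (39.7% of all genes). By the deposited values 5 members were at least 1.5-fold higher in Qa2+ cells in miR-142-/- (2.03% of all genes), against Pole2 alone in WT (2.07% of all genes). The 5 were Mcm6, Gins1, Prim1, Uhrf1 and Ccne1. Gins1 was below background in knockout Qa2- cells (5.76), and its Qa2+ value of 6.35 was less than 1.5-fold above the threshold of 5.87. At least 1.5-fold lower was Rfc3 in WT (2.88% of all genes) and no member in the knockout (2.83% of all genes). The stage difference was at least 1.5-fold higher in the knockout than in WT for 1.53% of all genes, at least 1.5-fold lower for 1.37% and above it by any amount for 48.5%. The difference between the genotypes' stage differences was not tested, since each rests on 1 array per group. Over 42 other replication genes 5 rose and 2 fell, among them Donson, which rose by 0.64 ± 0.10 (limma, adjusted p = 0.0076), Ccna2, by 0.67 ± 0.13 (limma, adjusted p = 0.014), and Cdc25a, the phosphatase that activates CDK2, which fell by 0.53 ± 0.10 (limma, adjusted p = 0.013).

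Replication and mitosis genes differed in their stage medians within WT. The mitosis list had medians of 0.61 in WT cells and 0.07 in knockout cells, with 5 of 19 genes called higher and 0 lower by limma, beside 0.02 and 0.16 for the replication members. The lists overlapped: in WT the mitosis genes ran from 0.17 (Kif15) to 0.89 (Nusap1) and the replication members from -0.68 (Rfc3) to 0.73 (Pole2). The MCM subunits lay on both sides of 0, from -0.13 (Mcm2) to 0.25 (Mcm3). The difference between the lists was not tested.

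**Figure D5:**
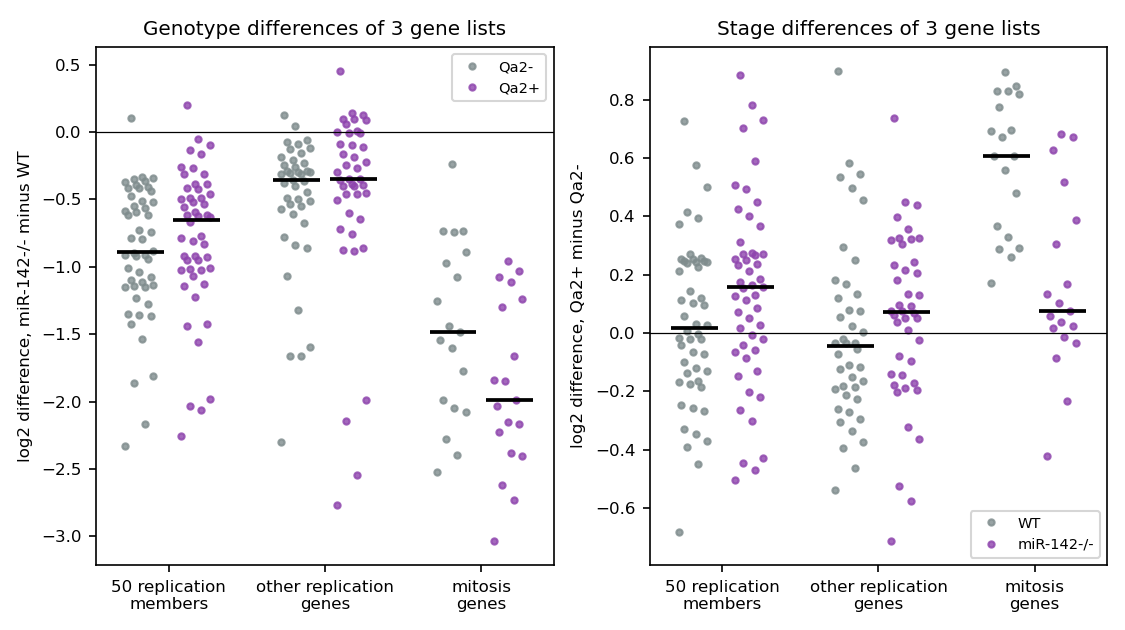
Log2 differences of the 50 members, 42 other replication genes and 19 mitosis genes, between genotypes (left; Qa2- grey, Qa2+ purple) and between stages (right; WT grey, miR-142-/- purple), with 1 point per gene and bars at the medians. Genotype medians run from -0.35 (other replication genes in Qa2+ cells) to -1.99 (mitosis genes in Qa2+ cells), and the mitosis median between stages is 0.61 on the WT arrays and 0.07 on the knockout arrays.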

How the data were processed

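RNA of each sorted population was hybridised to an Affymetrix Gene 1.0 ST array. The deposited table holds log2 values per probe set for 35557 probe sets, made by the authors with RMA and Partek per the submitters' processing notes (no version or setting is given in the sources used here). Such summaries compress differences of dim probe sets and can hide a shift shared by all genes. Probe sets with 1 listed gene (21789) were named through Entrez IDs (GRCm38.p6 records, 21698 matched), leaving out 1621 with several genes and 12147 with none; a gene with several probe sets took the one whose mean was highest.

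Genotype differences are miR-142-/- minus WT and stage differences Qa2+ minus Qa2-. Folds against a value below background are lower bounds against the threshold. Genotype differences have no test. The averaged stage difference was tested with limma 3.58.1 (R 4.3.3) on 12581 genes above background with pool as the block (2 pairs; residual degrees of freedom 1, prior 7.11), Benjamini-Hochberg adjustment, threshold 0.05, two-sided. The pairing comes from the labels, since each pool gave both populations. SEs therefore rest mostly on the spread pooled over genes and do not measure that between mice. On simulated arrays the fit called 197 of the 200 genes given a change, but also 54 unchanged genes, more than the threshold allows. The adjusted p-values given here are therefore likely too small. The smallest change simulated was larger than the stage difference of every called member but Pole2, so recovery at the size of the others was not tried. All members are named, along with up to 8 other replication genes at least 1.5-fold apart in both populations and up to 4 called between stages, and up to 3 genes of each further list. Exceptions to this rule, named after their values were seen, were Orc2, Orc3, Orc4 and Orc5, the regulatory T cell genes Ctla4, Foxp3, Gpr83 and Il2ra, and the B cell gene Cd79b. The members and lists were chosen with earlier results of these data known. Tables and figures were made in Python 3.11.15 (pandas 2.3.3, numpy 2.4.6, matplotlib 3.10.9). Alternatives were other scalings, filters, folds, probe set rules and models. The number of arrays limits the precision.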

Additional observations from a re-analysis of the deposited data

Results flagged for a closer look

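By the deposited values, the stage difference (Qa2+ minus Qa2-) of 5 members went in opposite directions in the genotypes and the genotypes were at least 1.5-fold apart. With 1 array per group the difference was not tested. In miR-142-/- minus WT, the stage difference of Prim1 was 1.18 (-0.45 in WT, 0.73 in miR-142-/-), that of Gins1 0.73 (-0.14 and 0.59, with the miR-142-/- Qa2- array below background) and that of Lig1 0.60 (-0.17 and 0.42). It was -0.64 for Chaf1a (0.21 and -0.43) and -0.70 for Ccne2 (0.25 and -0.45, with the miR-142-/- Qa2+ array below background). With values below background set to the threshold, the gap of Ccne2 fell short of 1.5-fold and that of Gins1 did not. By this measure 1.53% of all genes lay 1.5-fold or more above 0 and 1.37% below it, whichever the directions within the genotypes. The standard deviation of the same quantity over receptor genes was 0.22.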

How the results depend on the processing

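Counting at 2-fold in place of 1.5-fold left 20, 15 and 12 members lower in Qa2-, in Qa2+ and in both populations. Under the other settings tried (equalised array medians, quantile normalization, the mean over probe sets, members above background only, and values below background set to the threshold, the last chosen after seeing the data) these counts stayed within 1.5 times, between 30 and 35, 29 and 32, and 26 and 29. For the stage test, equalised medians gave 10 members called higher and 0 lower, and quantile normalization 10 and 2. Over the 12581 genes tested, these scalings gave 1088 higher and 737 lower, and 993 and 778, beside 615 and 1075 as deposited. The share of calls over all genes that were higher was 36.4% as deposited, 59.6% with equalised medians and 56.1% with quantiles matched; scaling alone moved this split. With no replicate block (the pool left out of the model) limma called 0 of the 12581 genes tested, and so 0 members higher and 0 lower. In that setting 0 members had an unadjusted p under 0.05, against 1543 of all genes. The genotype difference then stays in the residual, so this setting could hardly call genes that differ between the genotypes. Other filters and limma-trend gave 5 to 7 higher and 3 lower, beside 625 to 843 and 1019 to 1593 of the 9840 to 19938 genes tested. The mean over probe sets gave 6 and 2, beside 595 and 1015 of 12581 genes. Leaving out an array leaves a group empty, so no such setting was run. RMA gives no depth, and signal near background limits Orc1, Gmnn, Clspn, Ccne2 and Gins1.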
